A study of Mus musculus with 4 samples.

Results

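The fibroblast growth factor (FGF) genes of the mouse lens epithelium differed little between UVB-irradiated and covered eyes 24 h after exposure. The group was chosen by gene name, as every Fgf or Fgfr gene with only a number after the name, together with the feedback genes Spry1, Spry2, Spry4, Spred1, Spred2, Spred3, Dusp6 and Il17rd, the transcription factors Etv4 and Etv5, and the adaptor Frs2. Of these 37 genes, 36 had a probe set annotated to them alone, out of 19938 genes with such a probe set, and Frs2 was not matched. The members Spred2, Il17rd and Etv5, had 2 probe sets each, and the brighter of the pair was used. The rule itself uses no measured value.

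Each of 2 independent experiments gave 1 array of UVB-irradiated and 1 of control epithelium, so that 4 arrays were available, 2 per group. The mice were 8-week-old C57BL/6 males. Each animal supplied both groups, with its foil-shielded left lens as control for the right one, which was irradiated with UVB (30 mJ/cm2). No transgene or other agent is named, and all mice were anesthetized. Animal experiments used 3 mice, and how many of them contributed RNA to an array is not stated. Other tissues were removed from the lenses before the epithelium was isolated. The values are log2 signals, so that a difference of 1 is a doubling. The array medians lay between 7.19 and 7.22, the 25th percentiles between 5.91 and 5.94 and the 75th percentiles between 8.82 and 8.85. UVB was compared with control in limma with the experiment as a block, since both eyes came from the same mice. This fit has 1 residual degree of freedom. An adjusted p is corrected over all 28944 probe sets.

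FGFs are secreted proteins that bind receptor tyrosine kinases with the help of heparan sulfate chains at the cell surface. The receptors act through the adaptor Frs2, Ras and the kinase ERK, and this signal induces its own inhibitors, among them the Sprouty and Spred proteins, the ERK phosphatase Dusp6 and the membrane protein Il17rd, also called Sef. In the lens, FGF signaling is known for its part in the proliferation of epithelial cells and for driving their differentiation into fiber cells. The factors Fgf11 to Fgf14 are related in sequence but stay inside the cell, where they bind sodium channels.

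With the block, 0 members were called at an adjusted p of 0.05, as were 0% of all probe sets, and the lowest adjusted p of a member was 0.357. None passed the thresholds of the study, a change of more than 1.8-fold at an unadjusted p of 0.01. Of all probe sets, 0.0622% passed them. The p here is limma's with the block. The study selected its genes in Transcriptome Analysis Console, and that selection was not repeated. At an unadjusted p of 0.05, Fgf2 was the 1 member counted as higher (5.69% of all probe sets) and Fgf11 the 1 counted as lower (7.71% of all probe sets). Across the 36 genes, the log2 fold changes ranged from −0.16 to 0.22, with a median of −0.0075, or 0.0125 after the 75th percentiles were made equal. The median over all probe sets was −0.02. The size of the change was under 0.1 in 30 of the 36 members (83.3%) and in 63.5% of all probe sets. The 95% interval lay between −0.2 and 0.2 in 14 members, and those of the other 22 reached past 0.2 in size, so that a larger change of these is not left out by the arrays.

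Without the block, limma gave Fgf11 an adjusted p of 0.0215, and 1 of the 36 genes was called as lower and 0 as higher. Over all probe sets, that fit called 6.62% as higher and 11% as lower. In 100% of the probe sets, control plus UVB gave the same sum in both experiments to within 0.02. Where sums are equal in this way, the fit without the block understates the spread between arrays, so its values stand here only beside those of the fit with the block. At an unadjusted p of 0.05 it counted 5 members as higher (Fgf2, Fgf13, Fgfr1, Spry2 and Spred2), beside 14.4% of all probe sets, and 6 as lower (Fgf7, Fgf11, Fgf14, Fgf17, Fgf22 and Fgf23), beside 23.6% of all probe sets.

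**Figure D1:**
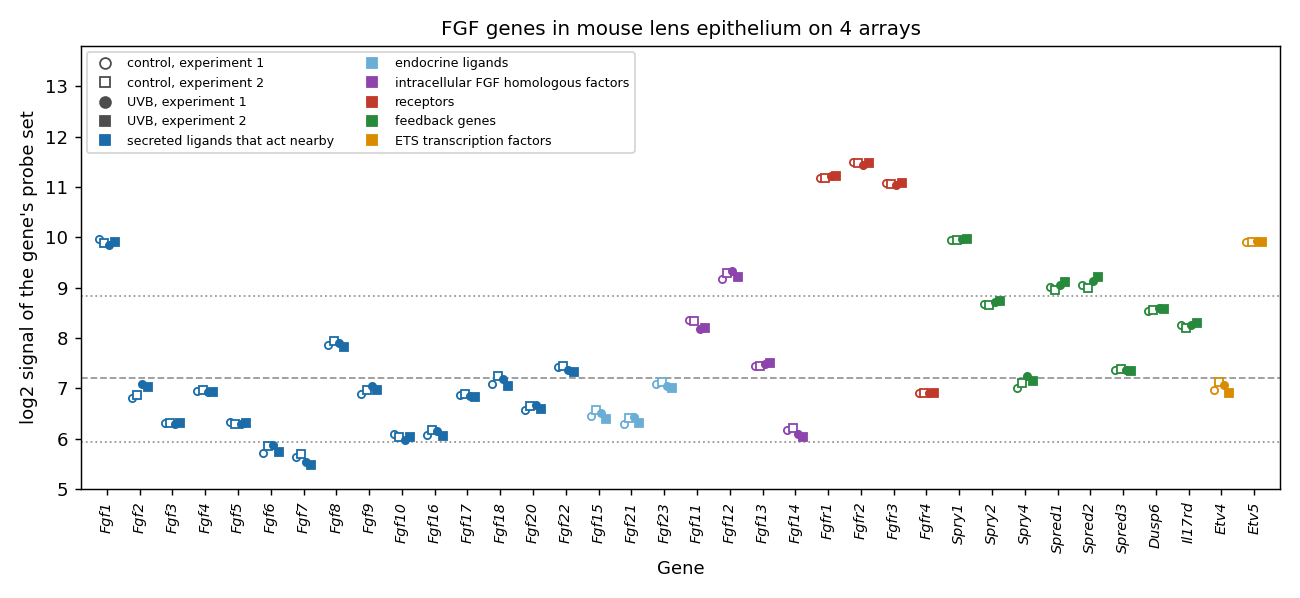
Log2 signal (vertical axis) of each of the 36 genes (horizontal axis) on the 4 arrays, with open symbols for control, filled symbols for UVB, circles for experiment 1 and squares for experiment 2. The dashed line is the array median and the dotted lines are the 25th and 75th percentiles. Fgfr1, Fgfr2 and Fgfr3 lie above 11 on every array, while most Fgf genes lie under the median.

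The receptor genes had nearly the same signal in irradiated and control epithelia. Fgfr1, whose product binds many FGFs, measured 11.18 and 11.17 on the control arrays of experiments 1 and 2, against 11.21 and 11.22 on their UVB arrays. Fgfr2, which can be spliced into a form that binds Fgf7 and Fgf10, had 11.49 and 11.47 in control and 11.44 and 11.47 after UVB. Fgfr3 had 11.08 and 11.05 in control and 11.04 and 11.07 after UVB. These 3 genes lay above the 75th percentile of every array, and the control and UVB arrays of Fgfr2 touched at 11.47 while those of Fgfr3 overlapped. Fgfr4 was at 6.90 on all 4 arrays, under the array median. The signal of a probe set also depends on its probes, so the brightness of different genes is not compared here.

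The log2 fold change of Fgfr1 was 0.04 (standard error 0.0281), with a 95% interval from −0.072 to 0.152. For Fgfr2 it was −0.025, with an interval from −0.153 to 0.103. For Fgfr3 it was −0.01, with an interval from −0.146 to 0.126, and 0.01 with the 75th percentiles set equal. Fgfr4 had a change of 0 and an interval from −0.109 to 0.109. All 4 intervals stayed within 0.2 of 0, so a change of a receptor gene by more than 0.2 lay outside them. Fgfr1 was higher in both experiments, and none of the receptor genes was lower in both.

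Fgf2 and Fgf11 had the largest increase and the largest decrease among the 36 genes. Fgf2, or basic FGF, is a ligand without a classical signal peptide that is stored in basement membranes such as the lens capsule. On the log2 scale it measured 6.80 and 6.87 in the controls of experiments 1 and 2, against 7.09 and 7.02 after UVB. Both irradiated arrays lay above both controls, as in 24% of all probe sets. All 4 values were under the array median, where background takes a larger part of a signal. The increase was 0.29 in experiment 1 and 0.15 in experiment 2, and 0.22 in the mean (standard error 0.0547, 1.16-fold, 95% interval from 0.0022 to 0.438). In limma its p was 0.0490 unadjusted and 0.357 adjusted. Its adjusted p lay between 0.0682 and 0.386 over the alternative settings. Leaving out either array of experiment 1, in fits without the block, gave Fgf2 a log2 fold change of 0.185. Nudt6, which overlaps Fgf2 on the opposite strand and was chosen after its values were seen, measured 7.32 on both control arrays and 7.24 on both UVB arrays (adjusted p = 0.371).

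Fgf11 measured 8.35 and 8.34 in the controls against 8.18 and 8.19 after UVB on the log2 scale. The groups did not overlap, as in 37.4% of all probe sets, which were lower. With the equal sums, this is the same as being lower in both experiments. The arrays of each group differed by 0.01, and the equal sums tie both gaps to each other. The change was −0.17 in experiment 1 and −0.15 in experiment 2, with a mean of −0.16 (standard error 0.0281, 1.12-fold lower, 95% interval from −0.272 to −0.048). The unadjusted p was 0.0242 and the adjusted p was 0.357 with the block. The adjusted p lay between 0.0215 and 0.386 over the alternative settings, the lowest being that without the block.

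The sequences upstream of both genes are shown because these were the members with the smallest p-values of each direction. RefSeq windows of 250 bases before the annotated start were at hand for 27 of the 36 genes (35 windows, build GRCm38.p6). Capitals mark GC boxes, written GGGCGG and searched on both strands, which the general factor Sp1 binds. The window of Fgf2 is chr3:37348403-37348652 on the plus strand, and that of Fgf11 is chr11:69802281-69802530 on the minus strand.
Fgf2: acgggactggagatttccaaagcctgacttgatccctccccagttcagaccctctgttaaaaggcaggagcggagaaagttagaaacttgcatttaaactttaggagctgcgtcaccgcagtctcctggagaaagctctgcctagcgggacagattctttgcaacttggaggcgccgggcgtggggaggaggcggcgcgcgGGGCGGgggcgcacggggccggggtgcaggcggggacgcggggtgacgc
Fgf11: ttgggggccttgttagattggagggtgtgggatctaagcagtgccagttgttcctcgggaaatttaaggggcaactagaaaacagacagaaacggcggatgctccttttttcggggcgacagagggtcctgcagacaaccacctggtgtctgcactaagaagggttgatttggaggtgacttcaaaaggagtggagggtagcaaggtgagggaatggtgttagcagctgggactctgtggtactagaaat

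The window of Fgf2 held 62.4% G and C and that of Fgf11 51.2%, beside a median of 62.4% over the member windows and of 52.4% over all 32851 windows of this length. A GC box was found in 23 of the 35 member windows and in 32.7% of all windows, and the window of Fgf11 had none. None of the member windows held CCGGAAG, a site of ETS factors such as Etv5, which 6.91% of all windows held. The AP-1 site TGANTCA stood in 2 member windows, those of Fgf12 and Fgf13, and in 6.75% of all windows. The site TAATCC of bicoid-type homeodomain proteins, the family of Otx2 and Crx, stood in 2 member windows and in 6.25% of all windows. Since the study centers on Otx2, both matches are shown with the site in capitals, read in the direction of the gene.
Il17rd (chr14:27038769-27038814, plus strand): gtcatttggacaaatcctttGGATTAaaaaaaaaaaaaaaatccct
Spred3 (chr7:29168799-29168844, minus strand): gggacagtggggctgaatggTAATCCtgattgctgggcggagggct
A match is a run of letters and says nothing about binding. The signals of Il17rd and Spred3 are given below with the other feedback genes.

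Fgf1, or acidic FGF, which binds every FGF receptor, lay above the 75th percentile on all 4 arrays. Its log2 signal was 9.97 and 9.89 in control and 9.84 and 9.91 after UVB, so the groups overlapped. The change was −0.13 in experiment 1 and 0.02 in experiment 2, with a mean of −0.055 (95% interval from −0.285 to 0.175). Fgf7, the keratinocyte growth factor, had 5.63 and 5.70 in control and 5.54 and 5.48 after UVB, under the 25th percentile throughout. It was lower by 0.09 and 0.22 in experiments 1 and 2, with a mean of −0.155 (adjusted p = 0.371 in limma).

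Of the 15 secreted ligands that act near their source, 2 were higher in both experiments (Fgf2 and Fgf9) and 6 were lower in both. The background was 24% of all probe sets for higher in both experiments and 37.4% for lower in both. The 6 were Fgf3, Fgf4, Fgf7, Fgf10, Fgf17 and Fgf22, with mean changes from −0.155 to −0.015. Fgf9, a ligand made by the retina in the developing eye, had a mean change of 0.09, made up of 0.17 in experiment 1 and 0.01 in experiment 2. The median of the 15 ligands was −0.03, and 3 of them (Fgf1, Fgf8 and Fgf22) had a mean signal above the median of all probe sets. Fgf8, known from the organizing centers of the embryo, measured 7.86 and 7.94 in the controls against 7.90 and 7.82 after UVB on the log2 scale. Its changes, 0.04 and −0.12, pointed in opposite directions.

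The hormone-like members need a Klotho co-receptor in place of strong heparan sulfate binding. Fgf15, which signals from the gut to the liver, changed by 0.05 in experiment 1 and by −0.18 in experiment 2. Fgf21, a regulator of metabolism, changed by 0.14 and −0.11. Fgf23, which controls phosphate, was lower in both experiments, by 0.05 and 0.11 (adjusted p = 0.410 in limma). Log2 signals of the 3 genes lay between 6.28 and 7.12 and thus under the median of every array.

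Of the intracellular factors, Fgf11 and Fgf14 were lower and Fgf13 was higher in both experiments, and Fgf12 went in opposite directions. Fgf14, linked to ataxia through its role at neuronal sodium channels, had 6.17 and 6.22 in control and 6.09 and 6.04 after UVB. Its mean change was −0.13 (adjusted p = 0.371). Fgf13 had 7.45 and 7.44 in control and 7.49 and 7.50 after UVB, so it was higher by 0.04 and 0.06, with a mean of 0.05 (95% interval from −0.062 to 0.162). Fgf12 had 9.18 and 9.28 in control and 9.32 and 9.21 after UVB, and the groups overlapped.

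**Figure D2:**
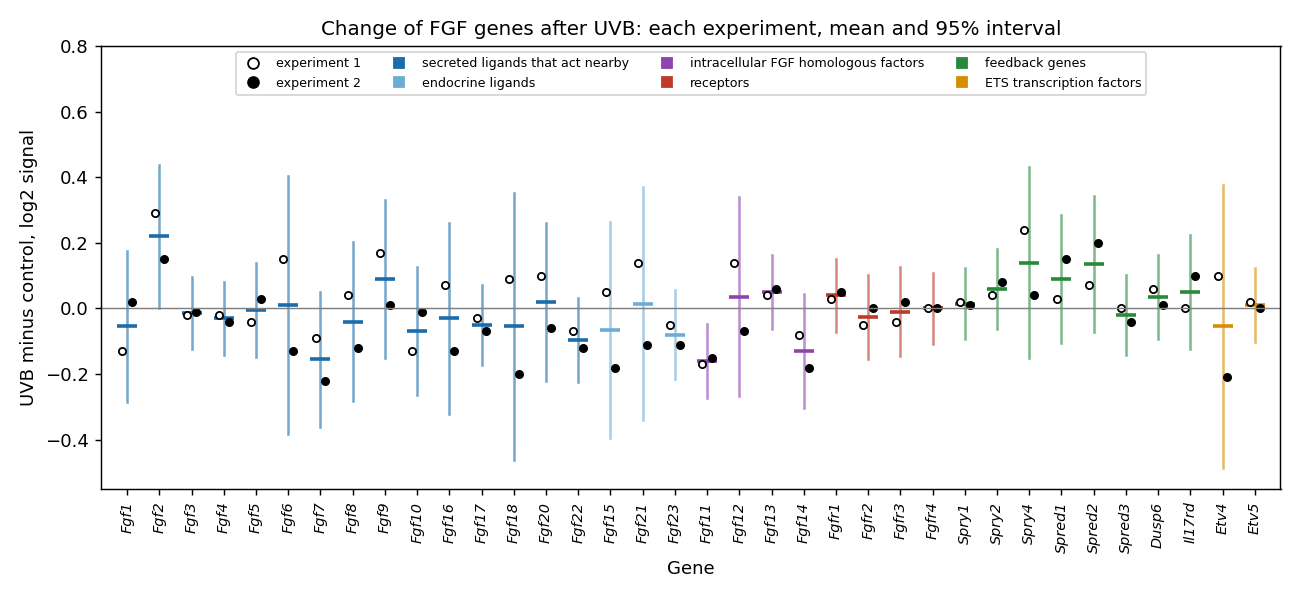
UVB minus control on the log2 scale (vertical axis) for each of the 36 genes (horizontal axis), with open circles for experiment 1, filled circles for experiment 2, a bar for their mean and a line for limma's 95% interval with the block. The intervals of Fgf2 (0.0022 to 0.438) and Fgf11 (−0.272 to −0.048) leave out 0, and those of the other 34 genes include it.

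Most of the feedback genes were higher in both experiments, by small amounts. Of the 8 genes, 6 were higher in both (Spry1, Spry2, Spry4, Spred1, Spred2 and Dusp6), 0 were lower in both, and Il17rd and Spred3 were at 0 in experiment 1. Over all probe sets, 24% were higher in both. The median of the 8 was 0.055, with 0.035 in experiment 1 and 0.06 in experiment 2, and none had an unadjusted p under 0.05. Centring the arrays on their medians gave 0.035 for the group and −0.005 for Spry1. The array medians themselves were higher after UVB, by 0.03 in experiment 1 and 0.01 in experiment 2. The changes of Spry1 in both experiments, of Spred1 in experiment 1 and of Dusp6 in experiment 2 were no larger. The count of 6 thus rests in part on changes of that size.

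Sprouty proteins block the step from the receptor to Ras. Spry1 measured 9.95 and 9.95 in the controls against 9.97 and 9.96 after UVB on the log2 scale, a mean change of 0.015 with an interval from −0.0945 to 0.125. Spry2 had 8.68 and 8.66 in control and 8.72 and 8.74 after UVB, with a mean change of 0.06 (adjusted p = 0.445). Spry4 had 7.0 and 7.10 in control and 7.24 and 7.14 after UVB, and its mean change of 0.14 came mostly from experiment 1 (0.24 against 0.04). In all 3 genes both irradiated arrays lay above both controls, as in 24% of all probe sets, and with the equal sums this is the same as being higher in both experiments. The adjusted p of Spry4 was 0.458, with an interval from −0.151 to 0.431.

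Spred proteins hold back the activation of Raf and bring the Ras inhibitor neurofibromin to the membrane. Spred2 had 9.06 and 9.0 in control and 9.13 and 9.20 after UVB, so it was higher by 0.07 and 0.20, with a mean of 0.135 (adjusted p = 0.389). Its other probe set changed by 0.25 in experiment 1 and by 0.04 in experiment 2, with a mean of 0.145. When both probe sets were averaged, Spred2 had a log2 fold change of 0.14 and an unadjusted p of 0.0376, against 0.111 for the brighter probe set alone. Spred1 had 9.02 and 8.96 in control and 9.05 and 9.11 after UVB, with a mean change of 0.09. Spred3 had 7.36 and 7.38 in control and 7.36 and 7.34 after UVB, a mean change of −0.02.

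Dusp6, the phosphatase that removes phosphate from ERK in the cytoplasm, had 8.54 and 8.56 in control and 8.60 and 8.57 after UVB. Its mean change was 0.035, with an interval from −0.0929 to 0.163. Il17rd, which keeps active ERK from the nucleus, had 8.25 and 8.20 in control and 8.25 and 8.30 after UVB. Its brighter probe set changed by 0 and 0.10 and its dimmer one by −0.11 and −0.03, so the 2 probe sets disagree in direction, with means of 0.05 and −0.07. The average of both gave −0.01.

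Etv4 and Etv5 are ETS transcription factors whose genes respond to FGF signaling, and Etv5 is widely used as a readout of it. Etv5 measured 9.90 and 9.91 in the controls against 9.92 and 9.91 after UVB on the log2 scale. Its mean change was 0.01, with an interval from −0.102 to 0.122, and its other probe set changed by 0.02 in each experiment. With each array centred on its median, Etv5 was at −0.01. Etv4, under the array median, had 6.97 and 7.12 in control and 7.07 and 6.91 after UVB. It was higher by 0.10 in experiment 1 and lower by 0.21 in experiment 2, and its interval, from −0.487 to 0.377, was the widest of the 36 genes.

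Between the experiments, 17 of the 36 genes (47.2%) did not move in the same direction, compared with 38.7% of all probe sets. In 9 of them (Fgf6, Fgf8, Fgf12, Fgf15, Fgf16, Fgf18, Fgf20, Fgf21 and Etv4) the irradiated epithelium was higher in experiment 1 and lower in experiment 2, a pattern found in 17.6% of all probe sets. Fgf1, Fgf5 and Fgfr3 went the other way, as did 14.3% of all probe sets, and 5 genes were at 0 in at least 1 experiment. Of the 22 Fgf genes, 11 were higher and 11 lower in experiment 1, while 5 were higher and 17 lower in experiment 2. All probe sets together leaned lower as well, with 43.1% higher and 53.6% lower in experiment 1 and with 39.7% higher and 56.6% lower in experiment 2. Fgf18 shows the size of these swings, at 7.09 and 7.24 in the controls against 7.18 and 7.04 after UVB. Because the sums of both experiments are equal, a gene with a brighter control array in experiment 1 than in experiment 2 has a dimmer UVB array there, so these mirrored values are not independent of each other.

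**Figure D3:**
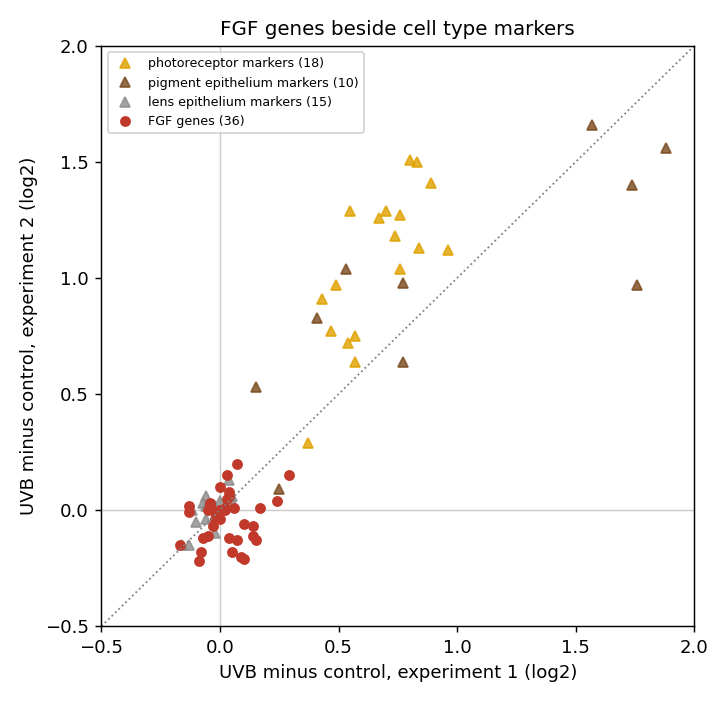
UVB minus control on the log2 scale in experiment 1 (horizontal axis) and experiment 2 (vertical axis) for the 36 FGF genes (circles) and for marker genes of 3 cell types (triangles), with equal changes on the dotted line. The FGF genes lie between −0.22 and 0.29 in both experiments, and all 18 photoreceptor and all 10 pigment epithelium markers lie above 0.

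The tissue carried its own markers: 15 of 15 lens epithelium genes were measured, the lowest at a log2 signal of 9.49, and their median change was −0.02. For the marker counts that follow, 24% of all probe sets were higher and 37.4% lower in both experiments. All 18 measured photoreceptor markers were higher in both experiments, with a median change of 0.94, and the log2 of their summed signals went from 13.37 and 13.09 in control to 14.01 and 14.29 after UVB in experiments 1 and 2. The lowest of their signals was 6.89, under the array median. By mean signal, all 18 lay above the median of all probe sets and 9 above the 75th percentile. Their median log2 signal was 8.455 and 8.30 in the controls and 9.095 and 9.38 after UVB. All 10 pigment epithelium markers were also higher in both experiments (median 0.83), with log2 sums of 11.25 and 11.25 in the controls against 12.53 and 12.49 after UVB, and a lowest signal of 6.04. Of 7 markers of Müller glia and astrocytes, 4 were higher in both experiments (median 0.27). Also higher in both were 9 of 9 markers of inner retinal neurons (median 0.205), 7 of 8 of ciliary body and iris (median 0.28) and 5 of 7 of leukocytes (median 0.235). Of 12 lens fiber markers, 8 were lower in both experiments (median −0.065). Blood vessel markers (4 of 6 lower, 2 higher) had a median of −0.085. Markers of cornea and conjunctiva (3 of 7 lower, 1 higher) had a median of 0.125, and here the experiments differed. In experiment 1 their changes ran from −0.09 to 1.10, with a median of 0.33. In experiment 2 they ran from −0.51 to 0.04, with a median of −0.09. Fgf2 and other members are also expressed in retinal tissues. The authors believe that Otx2 raised the retina-related genes, since the isolation was meant to avoid retinal tissue. They also mention, without showing it, an overlap with genes raised in cultured lens cells overexpressing Otx2. Where the RNA of these markers came from was not tested. Whether retinal RNA contributed to the higher Fgf2 signal, or to that of any other member, was not tested either. In such bulk samples, fewer cells of a type and less RNA per cell cannot be told apart.

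Other genes of the pathway were examined in 5 lists. Of 10 co-receptors and binding proteins, 9 were measured, with 3 higher and 2 lower in both experiments. This compares with 24% higher and 37.4% lower over all probe sets. The median change of the 9 genes was 0.025. This median was −0.005 and −0.01 without the control or the UVB array of experiment 2, in fits without the block, and 0.051 with quantile normalization. Fgfbp3, which releases FGFs from the matrix, had 6.80 and 6.83 in control and 6.97 and 6.94 after UVB, a mean change of 0.14 with an unadjusted p of 0.0469. Fgfrl1, a receptor without a kinase domain, had 10.53 and 10.55 in control and 10.49 and 10.47 after UVB. Lctl, a Klotho-related protein of the lens, had 12.55 on both control arrays and 12.49 on both UVB arrays. The adjusted p was 0.357 for Fgfbp3, 0.445 for Fgfrl1 and 0.426 for Lctl with the block. Without it, the adjusted p was 0.0432 for Fgfbp3 and 0.0396 for Lctl.

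Of 26 measured genes for the synthesis, carriers and trimming of heparan sulfate, 6 were higher and 6 lower in both experiments. Over all probe sets these shares were 24% and 37.4%. The median of the 26 genes was −0.0025. Of these, 3 had an unadjusted p under 0.05, all higher, where 5.69% of all probe sets were counted as higher and 7.71% as lower. Gpc3, a glypican that carries heparan sulfate chains on the cell surface, had 7.26 and 7.14 in control and 7.65 and 7.77 after UVB, so it was higher by 0.39 and 0.63, with a mean of 0.51 (standard error 0.0857, 1.42-fold, adjusted p = 0.357 with the block and 0.0432 without). Gpc6, another glypican, had 9.0 on both control arrays and 9.14 on both UVB arrays (adjusted p = 0.357, or 0.0215 without the block). Sdc3, a syndecan of the nervous system and muscle, had 9.59 and 9.56 in control and 9.70 and 9.72 after UVB.

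Of 22 listed genes of the cascade from the receptor to ERK, 16 were measured, with a median of −0.0425. Among the 16, 7 were lower and 2 higher in both experiments, beside 37.4% lower and 24% higher over all probe sets. Map2k1, which encodes the ERK kinase MEK1, had 9.44 on both control arrays and 9.28 on both UVB arrays, a change of −0.16 (adjusted p = 0.357 with the block and 0.0210 without). Ksr1, a scaffold of the cascade, changed by −0.12 and −0.14. Shc1, an adaptor at the receptor, changed by −0.10 and −0.15. At an unadjusted p of 0.05 with the block, Map2k1 and Ksr1 were counted as lower (7.71% of all probe sets) and none as higher (5.69%).

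Among 11 other feedback genes of ERK, Dusp5, a nuclear ERK phosphatase, had the largest change. Its log2 signals were 7.67 and 7.61 in control and 7.94 and 7.99 after UVB, with a mean change of 0.325 (standard error 0.0462, 1.25-fold, unadjusted p = 0.0155). The adjusted p was 0.357 with the block and 0.0312 without it. Of the 11, 6 were higher and 2 lower in both experiments (24% and 37.4% of all probe sets), with a median of 0.045. Dusp4, its relative, was higher by 0.38 in experiment 1 and by 0.01 in experiment 2. Spry3 was higher by 0.04 and 0.11, and Lrig1, which limits receptor signals, was lower by 0.16 and 0.07.

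Of 15 other ERK-responsive factors, 5 were higher and 3 lower in both experiments (24% and 37.4% of all probe sets). Their median change was −0.01. Fos had 6.92 on both control arrays and 7.13 and 7.12 after UVB (mean 0.205, unadjusted p = 0.0137, adjusted p = 0.357). Egr1 changed by 0.76 in experiment 1 and 1.33 in experiment 2, more than any other gene of the 5 lists or any FGF gene. In limma with the block its unadjusted p was 0.0274 and its adjusted p 0.357, with a 95% interval from 0.269 to 1.82. Without the block, limma gave Egr1 an adjusted p of 0.0520. The paper also reports Egr1 as raised by UVB. Elk3, an ETS factor, was lower by 0.10 and 0.14. In all, 77 genes of the 5 lists were measured, of which 7 were counted as higher and 2 as lower at an unadjusted p of 0.05 with the block (5.69% and 7.71% of all probe sets), and 0 at an adjusted p of 0.05.

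**Figure D4:**
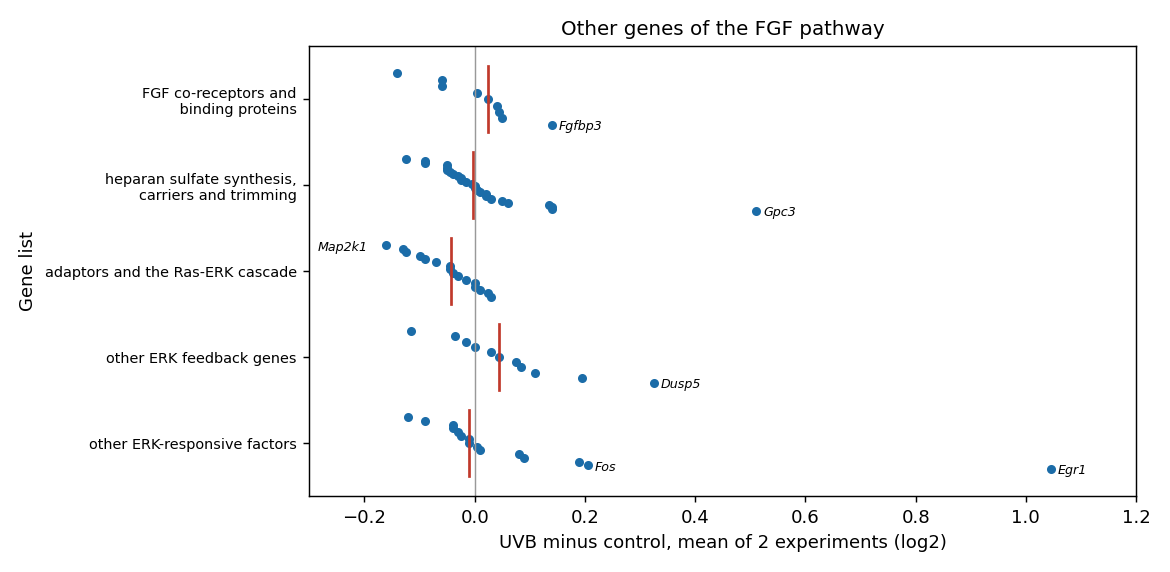
Mean change by UVB on the log2 scale (horizontal axis) of 77 other genes of the FGF pathway in 5 lists (vertical axis), with 1 point per gene and a vertical bar at the median of each list. Egr1 (1.04), Gpc3 (0.51) and Dusp5 (0.325) lie apart to the right, while the list medians lie between −0.0425 and 0.045.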

How the data were processed

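The deposited values are log2 signals per probe set, which the authors normalized in Affymetrix Expression Console, per the submitters' processing notes. For its version, the background correction, the summarization and the step behind the equal sums of both experiments, the sources used here name nothing. A human gene array is named in the methods, but the platform annotation gives the probe sets mouse symbols. UVB and control were compared over all 28944 probe sets with limma 3.58.1 in R 4.3.3, two-sided, with the experiment as a block and Benjamini-Hochberg adjustment. The block pairs the arrays because the methods compare both eyes of the same mice. Titles number only the arrays of experiment 2, and the unnumbered arrays were taken as experiment 1. Within an experiment, the deviations of both arrays from the group means correlated at −0.998, which the equal sums produce. Of the probe sets, 21789 had 1 symbol, 1621 several and 5534 none. A gene was given by its single-symbol probe set with the highest mean.

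The FGF genes and the pathway and marker lists were chosen with earlier results of these data known, and no list was tested as a set. Values on all 4 arrays were given for Fgf1, Fgf2, the receptors, the feedback genes and the ETS factors. They were also given for members with an unadjusted p under 0.05 or a change of at least 0.15 in 1 direction, and others were added after their values were seen. From each other list, the 3 genes with the smallest p and the 2 with the largest change of 1 sign were named. Alternatives were the fit without the block, quantile normalization, centring, equal 75th percentiles, other variance priors, other sets of probe sets, averaged probe sets and leaving out each array. The number of arrays limits the precision. A single value compared between 2 and 2 arrays allows no exact permutation p below 0.333. The p-values with the block set the mean change against how far both experiments differ, with a variance that limma moderates over all probe sets. They cover only these arrays.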

Additional observations from a re-analysis of the deposited data

How the results depend on the processing

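Without the replicate block, 1 FGF gene (Fgf11) was called at an adjusted p of 0.05, against 0 with it, and at an unadjusted p of 0.05 there were 5 higher and 6 lower (14.4% and 23.6% of all probe sets), against 1 and 1 (5.69% and 7.71%). The count of higher genes was 0 with the 75th percentiles set equal (Fgf2 at an unadjusted p of 0.0509), 0 with only probe sets of 1 symbol (0.0501), 0 with only probe sets above the median level, where Fgf2 was not tested, and 2 with averaged probe sets (Fgf2 and Spred2). The count of lower genes was 2 with a robust prior (Fgf11 and Fgf7). Leaving out 1 array in turn, without the block, gave between 0 and 1 higher genes and between 1 and 2 lower ones, and neither array of experiment 1 could be left out with Fgf2 still counted. Leaving out an array with the block leaves no residual degree of freedom and was not run. Under these alternatives, 0 members passed 1.8-fold. Small changes turned sign: Fgfr3 was at 0.017 with quantile normalization, at 0.01 with the 75th percentiles set equal and between −0.025 and 0.005 with arrays left out. Etv4 lay between −0.135 and 0.025 with arrays left out (0.02 without control array 2), Spry1 was at −0.005 and Etv5 at −0.01 with centring, and Il17rd at −0.01 with averaged probe sets. The cause of these turns was not tested. Signals under the array median, as in 19 of the 36 genes, limit what a change of the dim ligands can show.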
